A study of Mus musculus with 8 samples.

Results

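Cytosolic ribosomal protein genes and their paralogues were examined in 3 lines of mouse induced pluripotent stem (iPS) cells and 1 line of mouse embryonic stem (ES) cells. The genes were taken by symbol: those starting with Rpl or Rps and a digit, plus Rpsa, Fau and the stalk genes, leaving out the ribosomal S6 kinases and symbols that contain '-ps', a mark of pseudogenes. This gave 51 genes of the 18193 that had a probe set with 1 gene symbol, and 50 of them passed a floor on dim signals that left 14004 genes for testing. They comprised 20 large-subunit genes, 22 small-subunit genes, the stalk genes Rplp0 and Rplp2, 6 paralogues (Rpl22l1, Rpl39l, Rpl3l, Rpl7l1, Rps27l and Rps4l) and Rps19bp1, which encodes a binding partner of the small-subunit protein Rps19. The gene that was not tested was Rps16, whose single probe set with 1 symbol lay between 0.933 and 16.1 on all 8 arrays. A further 31 symbols that match the rule, among them Rpl5 and Rplp1, appeared only on probe sets that list several genes and are described only as a group.

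Groups were iPS line 1, iPS line 2, iPS line 3 and an ES control line, each with 2 Affymetrix arrays. All cells were male, of C57BL/6 background, between passage 7 and 10, and cultured in N2B27 medium with leukaemia inhibitory factor. The iPS lines were made without lasting integration of a vector, each is a single line, and the labels used here do not name the cells of origin. The titles call the arrays biological replicates without saying whether cultures were separate, so the spread that p-values rest on may be technical.

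A ribosome consists of a small subunit that reads the messenger RNA and a large subunit that forms the peptide bond, and each canonical ribosomal protein normally occupies 1 place in it. Many of the corresponding mRNAs begin with a terminal oligopyrimidine (TOP) tract, a C followed by further C and U residues, through which the kinase mTOR controls their translation. A few canonical proteins have paralogues that are used in particular tissues. In the mouse, Rpl39l is known from spermatogenesis, Rpl3l from striated muscle, and Rpl22l1 as a gene whose mRNA rises when Rpl22 is lost.

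The starts of the genes on which the results turn are given here, to set the paralogues beside their parent genes and beside subunit genes that differed between lines. They are RefSeq sequences of build GRCm38.p6, 60 bases before and 15 bases from the annotated start, written 5′ to 3′ in the direction of transcription. Capitals mark a run of C followed by at least 4 pyrimidines that begins within 5 bases of the annotated start.
Rpl22l1, chr3:28805448-28805522, plus strand: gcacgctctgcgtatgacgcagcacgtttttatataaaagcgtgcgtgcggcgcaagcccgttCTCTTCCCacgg
Rpl22, chr4:152325666-152325740, plus strand: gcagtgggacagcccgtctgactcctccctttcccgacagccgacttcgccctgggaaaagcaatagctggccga
Rpl39l, chr16:10170168-10170242, plus strand: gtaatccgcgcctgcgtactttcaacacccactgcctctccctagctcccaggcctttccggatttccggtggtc
Rpl39, chrX:37085208-37085282, minus strand: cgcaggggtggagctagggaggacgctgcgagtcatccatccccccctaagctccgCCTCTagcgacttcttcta
Rpl7l1, chr17:46782642-46782716, minus strand: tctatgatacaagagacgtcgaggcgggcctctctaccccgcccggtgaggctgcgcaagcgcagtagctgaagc
Rps6, chr4:86857353-86857427, minus strand: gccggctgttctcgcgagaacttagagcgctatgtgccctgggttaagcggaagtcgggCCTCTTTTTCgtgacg
Rpl12, chr2:32961652-32961726, plus strand: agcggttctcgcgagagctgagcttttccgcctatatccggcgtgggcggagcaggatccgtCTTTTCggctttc
Rpl13a, chr7:45128731-45128805, minus strand: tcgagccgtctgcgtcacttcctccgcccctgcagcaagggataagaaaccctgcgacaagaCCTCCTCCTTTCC

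The promoter table matched 45 of the 51 genes. A pyrimidine run as defined above was present in 48.7% of the 39 canonical genes matched and in 2 of the 5 paralogues matched, against 21.2% of all 27025 genes in the table and 23.8% of those tested here. Among the sequences shown, Rpl22l1, Rpl39, Rps6, Rpl12 and Rpl13a hold such a run, and Rpl22, Rpl39l and Rpl7l1 do not. A single annotated start stands for each sequence, and a window without these letters says nothing about other starts. Over 300 bases (250 before and 50 from the start, both strands), ACTTCCG, the core of the site of ETS-family factors, was found in 30.8% of canonical genes, against 7.2% of all genes and 13.1% of those tested. The letters ATGGCGG, part of the site of the factor YY1, were found in 12.8% of canonical genes, against 4.69% of all genes and 8.46% of those tested. The TATA box letters TATAAA were found in 12.8%, against 15.7% of all genes and 9.53% of those tested. The letters CCAAT were found in 28.2% of canonical genes, against 41.1% of all genes and 42.6% of those tested. For GGGCGG the shares were 59.0%, 38.2% and 65.5% in that order. In all these counts, the pyrimidine run included, a gene held the letters if any of its annotated starts did.

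The arrays shared 1 scale. Replicate arrays correlated at r between 0.981 and 0.983 across the tested genes, which are not independent. The beta-actin 3′/5′ signal ratio, which rises when RNA is degraded or incompletely copied, stood at 1.74 and 1.79 in iPS line 2 and between 1.49 and 1.62 on the other 6 arrays. The Gapdh ratio did not set line 2 apart, with 0.915 and 0.946 in line 2 and 0.856 to 0.935 on the others. All 10 pluripotency markers examined exceeded the floor on all 8 arrays, whereas 1 of 12 fibroblast markers did so and 4 (Col1a1, Twist2, Dcn and Postn) exceeded it on none. The floor lies far below the pluripotency signals, so passing it does not compare the lines. Pou5f1, Esrrb and Fbxo15 lay below both ES arrays on every iPS array, Fbxo15 with 9635 to 11574 against 12433 and 12462. Pou5f1, Utf1 and Lin28a were lowest on the arrays of line 2, and Tdgf1 and Dppa5a highest. Utf1 read 702 and 542 in line 2, against 880 to 1202 on the other arrays. The summed fibroblast signal was 342 to 361 in iPS line 1, 490.2 to 584 in iPS line 2, 329 to 342 in iPS line 3 and 289.9 to 337 in ES cells. Pdgfrb, a receptor gene on that list, read 247 and 177 in line 2, against 24.5 to 58.2 on the other arrays. The summed signal of 4 testis markers was 6071 to 6109 in iPS line 2, against 3797 to 4041 on the other arrays, and that of 5 trophoblast markers 3749 to 4167, against 2116 to 3089. Stra8, Sycp3 and Ddx4 were highest in line 2, Stra8 with 2632 and 2246, against 884 to 1435 on the other arrays. Dazl read 745 and 821 in line 2, below the 863 and 907 of ES cells. The trophoblast sum was mostly Tfap2c, with 3056 and 3556 in line 2, against 1532 to 2495. Cdx2, Elf5, Eomes and Hand1 overlapped between line 2 and the other arrays. The summed signal of 4 neural markers was 787 to 891 in lines 1 and 3, against 473 to 617 in line 2 and ES cells. Pax6 read 130 to 188 and Tubb3 464 to 588 in lines 1 and 3, against 49.9 to 74.3 and 220 to 333. Sox1 read 13.6 to 58.0 in lines 1 and 3, below the 70.5 and 94.4 of ES cells, and Nes overlapped. The part of RNA quality and of these markers in the results for the iPS lines was not tested. In RNA from whole cultures, fewer cells of a type and less RNA per cell cannot be told apart.

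Canonical ribosomal protein genes stood at nearly the same signal in iPS and ES cells. None of the 43 tested passed limma with Benjamini-Hochberg adjustment over all genes when the 3 iPS lines were averaged and set against ES cells, and 2 had an unadjusted p under 0.05. Over all 50 genes tested, 2 passed, both of them paralogues, and 6 had an unadjusted p under 0.05; among all genes the share called was 7.3%, with 4.27% higher and 3.03% lower. The median log2 difference of the 50 genes was 0.03 and that of all genes 0.02. A gene counts as called at an adjusted p under 0.05, and differences are iPS minus ES on the scale of log2(signal + 12.4).

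Of the 43 canonical genes, 35 had a mean signal over 10000, a limit chosen after the values were seen, and these ran from 23571 to 45774. Their differences in the mean of the iPS lines lay between -0.05 and 0.08 log2 units, and the 95% confidence intervals of all 35 fell within -0.17 and 0.19. The within-group SD of these genes had a median of 0.07 log2 units, and the range over the 8 arrays a median of 0.22. Among the 49 other genes at least as bright as the dimmest of the 35, these medians were also 0.07 and 0.22. The highest signal of any probe set lay between 43474 and 48152 on an array. Whether signals this high approached the upper limit of the scanner was not tested.

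Genes of the stalk, and genes with roles outside the ribosome, lay within these limits. Rplp0, the stalk protein that anchors the others, had signals of 37552 and 34759 in iPS line 1, 39993 and 37630 in iPS line 2, 36942 and 35024 in iPS line 3, and 34811 and 39753 in ES cells. The ES arrays alone spanned most of this range, and the difference was -0.01 ± 0.06 log2 units (SE). Rplp2, which recruits elongation factors as part of the stalk, had signals of 38285 and 37555 in iPS line 1, 44099.9 and 41374 in iPS line 2, 40334 and 36966 in iPS line 3, and 38286 and 41328 in ES cells. Rpl11, which together with Rpl5 binds the p53 inhibitor Mdm2 when ribosome assembly fails, had signals of 27098 and 26051 in iPS line 1, 29619 and 28644 in iPS line 2, 28539 and 28258 in iPS line 3, and 25790.1 and 27730.2 in ES cells. It was not called (0.07 ± 0.04 log2 units, limma with Benjamini-Hochberg adjustment, adjusted p = 0.414). Rpsa, also known as the laminin receptor, differed by 0.01 log2 units, and Fau, which encodes a small-subunit protein made as a fusion with a ubiquitin-like peptide, by 0.06. Neither was called.

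The 8 canonical genes under this limit (Rpl12, Rpl14, Rpl27a, Rpl37, Rpl39, Rps25, Rps27 and Rps6) had mean signals between 269 and 3599 and differences between -0.14 and 0.24 log2 units, none of them called. These results depended on the probe set. Tested one by one, 0 of 67 canonical probe sets over 10000 were called in the mean of the lines. Of 25 under it, which ran from -0.77 to 0.40, 1 was called, lower. With a gene's probe sets averaged, 1 of the 35 bright genes was called. Probe sets that list several genes, of which 106 with a matching symbol passed the floor, had a median difference of 0.02, and 1 of them was called, lower, against 4.18% of all probe sets tested with them.

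**Figure D1:**
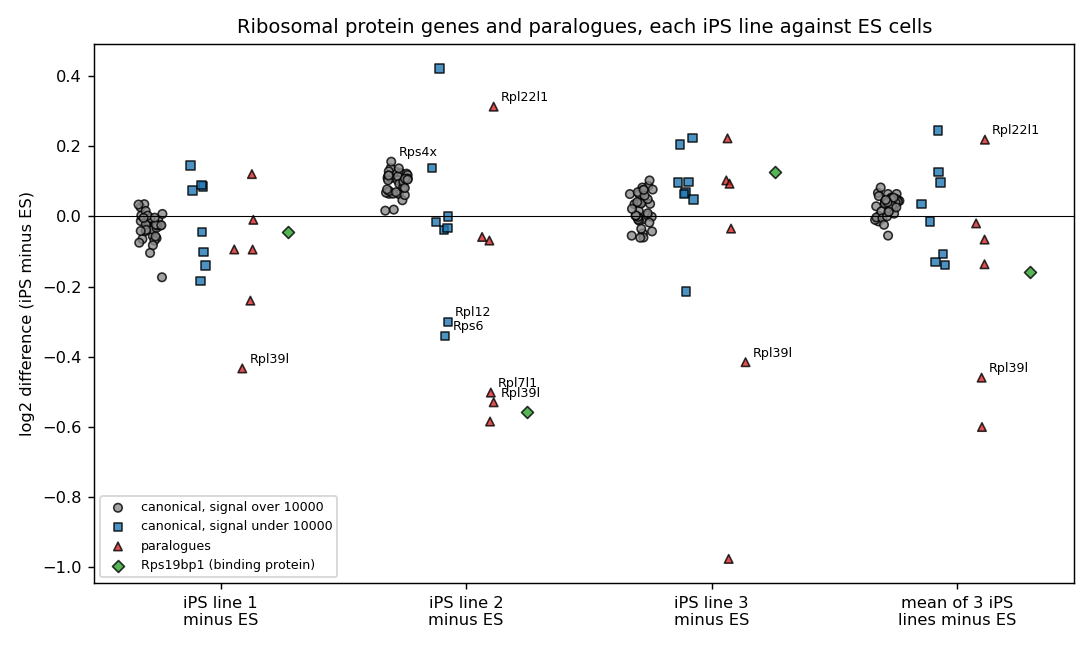
Log2 difference (iPS minus ES) of each of the 50 tested genes in iPS line 1, iPS line 2, iPS line 3 and the mean of the 3 lines, with canonical genes split at a mean signal of 10000 and called genes named except Rps19bp1, the diamond, which was called in line 2. Bright canonical genes lie between -0.17 and 0.16 in every column, Rpl39l lies between -0.53 and -0.42, and the unnamed triangle at -0.98 in line 3 is the dim gene Rpl3l.

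Of the 6 paralogues, Rpl22l1 rose and Rpl39l fell when the iPS lines were averaged, and 4 were not called; among all genes 7.3% were called. Rpl39l, a paralogue of the large-subunit protein at the exit tunnel, had signals of 1820 and 1628 in iPS line 1, 1607 and 1611 in iPS line 2, 1698 and 1788 in iPS line 3, and 2215 and 2448 in ES cells. Every iPS array lay below both ES arrays. The difference was -0.46 ± 0.07 log2 units (SE, n = 6 iPS and 2 ES arrays), 1.38-fold lower in iPS cells, with an adjusted p of 0.00113 in limma with Benjamini-Hochberg adjustment.

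Rpl39l was also the only gene of the 50 called in each of the 3 lines against ES cells, which share the same ES arrays. The differences were -0.43 ± 0.08 in iPS line 1, -0.53 ± 0.08 in iPS line 2 and -0.42 ± 0.08 in iPS line 3, with adjusted p of 0.0143, 0.00042 and 0.0127 in limma with Benjamini-Hochberg adjustment. It was the single gene called of 50 in line 1, where the share among all genes was 2.34%, and in line 3, where it was 4.17%. Without the second ES array both line 1 and line 3 lost the call, as did line 1 without its second array and line 3 without either of its arrays. Over all alternatives the difference stayed between -0.51 and -0.35 in line 1 and between -0.49 and -0.34 in line 3. The call in the mean of the lines was kept on leaving out any array and was lost when limma's intensity trend was dropped and when the means of the lines were taken as samples.

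Rpl22l1, the paralogue of the RNA-binding large-subunit protein Rpl22, had signals of 18606 and 17540 in iPS line 1, 21721 and 19615 in iPS line 2, 19440 and 19334 in iPS line 3, and 16735 and 16500.2 in ES cells. No iPS array overlapped with ES cells, and line 2 was highest in its mean. The rise was 1.16-fold in the mean of the lines (0.22 ± 0.05 log2 units, limma with Benjamini-Hochberg adjustment, adjusted p = 0.0149). Only line 2 was called on its own (0.31 ± 0.06, adjusted p = 0.00173 in limma with Benjamini-Hochberg adjustment), while the values were 0.12 in line 1 and 0.22 in line 3. Without iPS line 2, without either ES array, without the intensity trend, with arrays centred on their medians or with the means of the lines as samples, the mean lost its call, and its value over all alternatives stayed between 0.17 and 0.24.

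**Figure D2:**
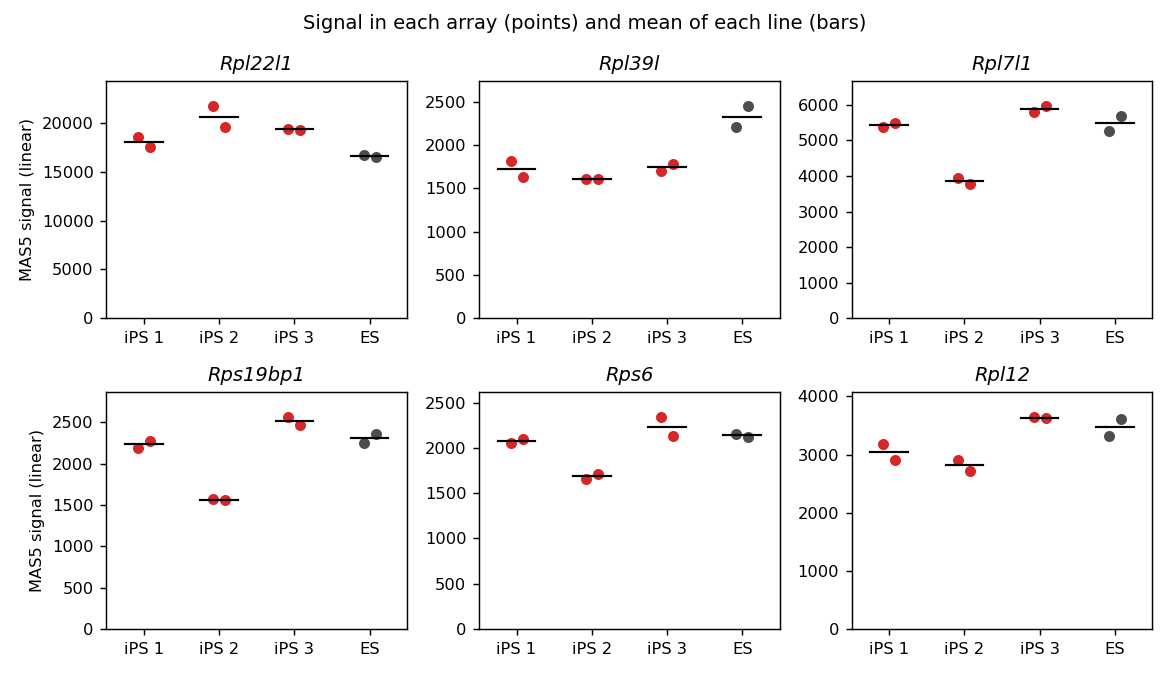
MAS5 signal (linear, arbitrary units, from 0) of 6 genes on each array as points, with the mean of the 2 arrays of a line as a bar, for iPS lines 1, 2 and 3 and ES cells. Rpl39l is below both ES arrays on all 6 iPS arrays and Rpl22l1 above them, whereas Rpl7l1, Rps19bp1 and Rps6 are lowest on the 2 arrays of iPS line 2.

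The remaining paralogues were not called in the mean of the lines. Rps27l, a gene induced by p53, had signals of 18879 and 19923 in iPS line 1, 19805 and 19952 in iPS line 2, 21965 and 22207 in iPS line 3, and 19937 and 21505 in ES cells. Its difference was -0.02 ± 0.04 log2 units, with a 95% confidence interval of -0.12 to 0.08. Rps4l, which RefSeq annotates as a transcribed pseudogene, had signals of 18806 and 17433 in iPS line 1, 18916 and 17961 in iPS line 2, 19347 and 18413 in iPS line 3, and 18049 and 20715 in ES cells. Its difference was -0.07 ± 0.06, within the spread of the ES arrays. Its sequence is close to that of Rps4x, and how far its probes also read Rps4x was not tested.

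Rpl3l was at the lower end of measurement. Its signals were 37.0 and 53.2 in iPS line 1, 26.6 and 39.2 in iPS line 2, 48.6 and 6.76 in iPS line 3, and 73.8 and 40.01 in ES cells, with the floor at 37.1. The groups overlapped, and the confidence interval of -1.58 to 0.38 log2 units does not settle its direction.

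Each paralogue was then set against its parent gene on the same array, as the paralogue's log2 value minus that of the parent, relative to the mean of the ES arrays. For Rpl22l1 minus Rpl22 the values were 0.16 and 0.14 in iPS line 1, 0.15 and 0.20 in iPS line 2, 0.13 and 0.16 in iPS line 3, and 0.06 and -0.06 in ES cells. The difference was higher on every iPS array than on either ES array, by 0.15 in the mean. In an exact two-sided permutation test over the 28 assignments of the arrays, p was 0.0357, the smallest the design allows, and 0.0893 after Benjamini-Hochberg adjustment over the 5 pairs. This test takes the arrays as exchangeable. With the 2 arrays of a line kept together there are 4 assignments, and no p under 0.25 is possible. Rpl22 itself had signals of 35814 and 34387 in iPS line 1, 42121 and 36772 in iPS line 2, 38381 and 37387 in iPS line 3, and 34583 and 37028 in ES cells.

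For Rpl39l minus Rpl39 the difference was lower on every iPS array than on either ES array, by 0.59 in the mean, with the same exact permutation p of 0.0357 and adjusted p of 0.0893. Rpl39 could be followed only on a dim probe set (217 to 333 on the iPS arrays, 237 and 260.1 in ES cells), and the difference ran from -0.92 to -0.24 on the iPS arrays. The values for the other 3 pairs were -0.26 for Rps27l minus Rps27, -0.16 for Rpl7l1 minus Rpl7 and -0.12 for Rps4l minus Rps4x, with adjusted p of 0.357, 0.821 and 0.179 in the same exact permutation test. Adjusted over the 5 pairs, no pair passed 0.05.

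**Figure D3:**
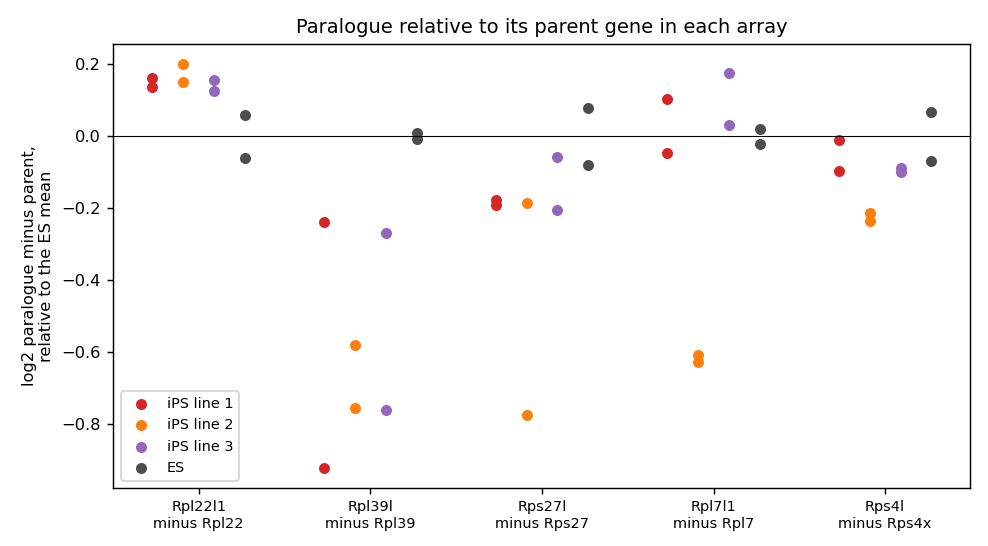
Log2 value of a paralogue minus that of its parent gene on each array, relative to the mean of the 2 ES arrays, for iPS lines 1, 2 and 3 and ES cells. Rpl22l1 minus Rpl22 is between 0.13 and 0.20 on the iPS arrays, Rpl39l minus Rpl39 is below 0 on all of them, and Rpl7l1 minus Rpl7 is -0.61 and -0.63 in line 2.

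The genes most like these paralogues over the 8 arrays, by Pearson r of log2 values and as a description only, were Crabp2 (0.973), Ccnl2 (0.97) and Nudt16l1 (0.962) for Rpl22l1. For Rpl39l they were Zfp932 (0.979), Ldhal6b (0.972) and Pex10 (0.967).

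In iPS line 2 against ES cells, 7 of the 50 genes were called, 14% of them, while 26.7% of all genes were, 16.1% higher and 10.6% lower. Rpl22l1 and the X-linked small-subunit gene Rps4x rose, and Rpl39l, Rpl7l1, Rps19bp1, Rps6 and Rpl12 fell. Rpl7l1, a gene related to the large-subunit gene Rpl7, had signals of 3948 and 3780.1 in iPS line 2, against 5386 and 5493 in iPS line 1, 5809 and 5954 in iPS line 3, and 5277 and 5685 in ES cells. Both arrays of line 2 lay below all others. The fall was -0.50 ± 0.06 log2 units (limma with Benjamini-Hochberg adjustment, adjusted p = 7.38e-05).

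All 3 probe sets of Rpl7l1 fell in line 2, by 0.50, 1.06 and 0.50 log2 units. In the pairs of iPS lines, Rpl7l1 was lower in line 2 than in line 1 (-0.49 ± 0.06, adjusted p = 0.000137) and than in line 3 (-0.60 ± 0.06, adjusted p = 1.38e-05), both in limma with Benjamini-Hochberg adjustment. On its brightest probe set the mean of the 3 lines was -0.14 ± 0.05 and not called, and without line 2 it was 0.05. Over 20 alternatives the mean lay between -0.31 and 0.05 and was called in 1. Another probe set of Rpl7l1 had 882 and 810 in line 1 and 831 and 926 in line 3, below the 1040 and 1080 of ES cells. A further one had 3717 and 3768 in line 1, 3853 and 3739 in line 3, and 4390 and 3817 in ES cells.

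Rps19bp1, whose human protein binds RPS19 and the deacetylase SIRT1, had signals of 1567 and 1556 in iPS line 2, against 2190.4 and 2274 in iPS line 1, 2562 and 2466 in iPS line 3, and 2249.7 and 2358 in ES cells. Both arrays of line 2 were below the other 6. The fall against ES cells was -0.56 ± 0.07 log2 units (adjusted p = 7.68e-05), against line 1 -0.51 ± 0.07 (adjusted p = 0.000223) and against line 3 -0.68 ± 0.07 (adjusted p = 1.28e-05), all in limma with Benjamini-Hochberg adjustment.

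Rps6, the small-subunit protein phosphorylated by the S6 kinases, had signals of 1662 and 1711 in iPS line 2, against 2050.3 and 2095 in iPS line 1, 2341 and 2134 in iPS line 3, and 2152 and 2125 in ES cells. Both arrays of line 2 were again below the other 6, and the fall was -0.34 ± 0.07 log2 units (limma with Benjamini-Hochberg adjustment, adjusted p = 0.00358). Rpl12, a protein at the base of the stalk, had signals of 2900.1 and 2725 in iPS line 2, against 3188 and 2912 in iPS line 1, 3644 and 3624 in iPS line 3, and 3318 and 3619 in ES cells. Line 2 lay just below line 1 and clearly below ES cells, and the fall was -0.30 ± 0.07 (limma with Benjamini-Hochberg adjustment, adjusted p = 0.0079). Without the second ES array, the second array of line 2 or the intensity trend the call of Rpl12 was lost. For Rps6 and Rpl12 these were the brightest probe sets with 1 symbol, with mean signals of 2034 and 3241. Both are therefore dim probe sets, and in other genes dim and bright probe sets disagreed in line 2, as described below.

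On their brightest probe sets, the bright canonical genes moved little in line 2. All 35 had a positive difference from ES cells, between 0.02 and 0.16 log2 units with a median of 0.10, against a median of 0.07 over all genes, and 1 was called. The sign depended on the scaling: 26 of 35 were positive after quantile normalization (median 0.01) and 22 after centring arrays on their medians (median 0.01). With a gene's probe sets averaged, 30 of 35 were positive, the values ran from -0.52 to 0.21 (median 0.10) and 4 genes were called. The size depended on single arrays: the median was 0.04 without the first ES array, 0.16 without the second and 0.06 without the first array of line 2. In line 1, 28 of 35 were negative (median -0.03), and in line 3, 23 were positive (median 0.02). Centring the arrays turned the median of line 1 to 0.01, and quantile normalization turned that of line 3 to -0.01. Single arrays turned these directions too. In line 1, 26 of 35 were positive without the second ES array (median 0.04) and 24 without its own second array (median 0.01). In line 3, 24 were negative without the first ES array (median -0.04) and 20 without its own first array (median -0.01).

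The gene called on its brightest probe set was Rps4x, with signals of 43571 and 41992 in iPS line 2 and 37563 and 39252 in ES cells. The arrays did not overlap, and the rise was 0.16 ± 0.05 log2 units (limma with Benjamini-Hochberg adjustment, adjusted p = 0.0391). The call was lost under 9 of 19 alternatives, among them both scalings and leaving out any array of line 2 or ES cells. Of 381 other genes with a mean signal over 10000, 30.7% were called in line 2, and of the 49 others as bright as the 35 genes, 12.2% were.

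Several canonical genes were read by both bright and dim probe sets, and these did not give 1 answer in line 2. Tested one by one, 2 of 67 bright canonical probe sets and 11 of 25 dim ones were called, against 21.3% of all probe sets. The 11 comprised 3 that rose and 8 that fell. The cases below were picked after their values were seen. A dim probe set of Rps20, a small-subunit gene, had signals of 157 and 143 in iPS line 2, against 265 and 319 in iPS line 1, 288 and 299 in iPS line 3, and 366 and 357 in ES cells. It was lower by -1.20 ± 0.15 log2 units (limma with Benjamini-Hochberg adjustment, adjusted p = 0.000116), and the other dim one of Rps20 by -0.95. The bright probe sets of Rps20 had differences of 0.02 and 0.07, neither called.

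For Rps3, a small-subunit protein at the entry of the mRNA channel, the dim probe set differed by -0.43 and the bright one by 0.11. For Rps24, another small-subunit gene, a dim probe set had 3695 and 3081 in iPS line 2 and 2310 and 2399 in ES cells, a difference of 0.52 ± 0.10 (limma with Benjamini-Hochberg adjustment, adjusted p = 0.00337), while the 4 bright ones lay between -0.01 and 0.07. Rpl22 had a dim probe set at 0.35 ± 0.08, called, and bright ones at 0.14 and 0.14, not called. Which transcripts each probe set reads was not tested, and the probe sequences were not used here. Of the 107 probe sets of the 51 genes, 43 carry a suffix by which the manufacturer marks probes shared between transcripts.

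**Figure D4:**
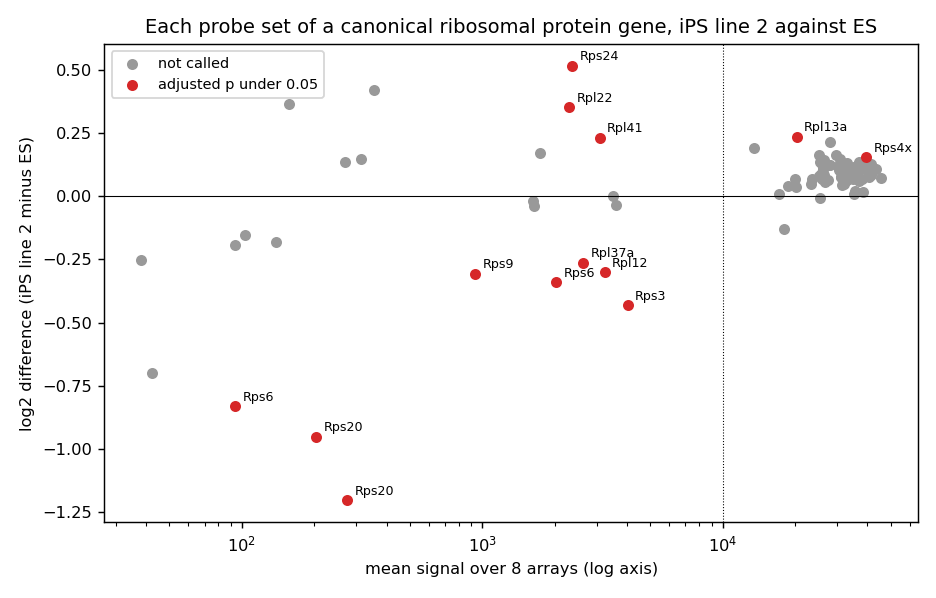
Log2 difference (iPS line 2 minus ES) of every passing probe set of a canonical gene against its mean signal over the 8 arrays (log axis), with called probe sets in red and a dotted line at 10000. The 67 bright probe sets cluster just above 0, while the 25 dim ones spread from -1.20 to 0.52.

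The direct comparisons between iPS lines gave calls only where line 2 was involved. In line 2 against line 1, 7 of 50 genes were called, while 23.3% of all genes were: Rpl22l1, Rps4x, Rpl13a and Rpl8 were higher in line 2, and Rpl7l1, Rps19bp1 and Rps6 lower. Rpl13a, a large-subunit gene whose start carries the longest run in the sequences above, had signals of 47292 and 44543 in line 2 and 40659 and 41164 in line 1, a difference of 0.17 ± 0.05 log2 units (limma with Benjamini-Hochberg adjustment, adjusted p = 0.0273). ES cells, with 41990 and 43108 for Rpl13a, lay between line 1 and line 2. Rpl8, whose product lies close to the peptidyl transferase centre, had signals of 30755 and 28332 in line 2 and 24249 and 25833 in line 1, a difference of 0.24 ± 0.07 (limma with Benjamini-Hochberg adjustment, adjusted p = 0.0203). Rpl8 read 28656 and 25770 in line 3 and 27318 and 29180 in ES cells. Line 2 overlapped with ES cells, and both arrays of line 1 lay below them (-0.17 ± 0.07, not called). After quantile normalization or centring, Rpl13a, Rpl8, Rps4x and Rpl22l1 all lost their calls in line 2 against line 1.

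In line 2 against line 3, 5 of 50 genes were called, while 31.1% of all genes were. Rps25, a small-subunit gene, was higher in line 2, with 3733 and 3774 in line 2 and 3415 and 3212 in line 3 (0.18 ± 0.06 log2 units, limma with Benjamini-Hochberg adjustment, adjusted p = 0.0448), a call lost under 12 of 19 alternatives. Line 2 was not above ES cells, where Rps25 read 3810 and 3877, higher than on every iPS array. Its difference in the mean of the lines was -0.13 ± 0.05 and not called. Rpl7l1, Rps19bp1, Rps6 and Rpl12 were lower in line 2 than in line 3. Between line 3 and line 1, limma with Benjamini-Hochberg adjustment called 0 of 50 genes and 5 had an unadjusted p under 0.05, while 1.41% of all genes were called.

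Genes for the assembly of ribosomes were mostly lower in iPS line 2. Of 52 listed assembly and nucleolar factors, 51 were tested. In iPS line 2 against ES cells 31 fell and 0 rose, with a median of -0.28 log2 units, whereas 10.6% of all genes were called lower and the median of all genes was 0.07. On 40 of the 51, both arrays of line 2 lay below all 6 other arrays, against 14.3% of all tested genes. Line 2 also gave 32 lower calls against line 1 (9.53% of all genes) and 39 against line 3 (12.1% of all genes). Leaving out any 1 array left 25 to 30 lower calls against ES cells, quantile normalization 30 and centring 34. Without limma's intensity trend 18 fell.

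Nop56, a core protein of box C/D small nucleolar ribonucleoproteins, had signals of 8902 and 7910 in iPS line 2, against 10902 and 10594 in iPS line 1, 11081 and 11840 in iPS line 3, and 12155 and 12207 in ES cells. Line 2 was lowest. It fell by 0.54 ± 0.06 log2 units in line 2 and by 0.27 ± 0.05 in the mean of the lines (limma with Benjamini-Hochberg adjustment, adjusted p = 0.00739 for the mean). Imp4, part of the small-subunit processome, had signals of 2037 and 1937 in iPS line 2 and 3168 and 3464 in ES cells, and fell by 0.73 ± 0.07 in line 2 (limma with Benjamini-Hochberg adjustment, adjusted p = 8.79e-06). Noc3l, involved in large-subunit maturation in yeast, had 714 and 686 in iPS line 2 and 1158 and 1277 in ES cells, and fell by 0.79 ± 0.08 in line 2. Nip7, another maturation factor, fell by 0.53 ± 0.06 there.

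In the mean of the lines 2 of the 51 assembly factors fell (Nop56 and Noc3l), a share near the 3.03% of all genes called lower. In line 1 against ES cells 0 were called, against 2.34% of all genes. In line 3, 2 of 51 rose, against 1.59% of all genes: Ebna1bp2 (0.44 ± 0.07) and Gar1 (0.26 ± 0.06), both named after their values were seen. The higher calls in line 3 numbered 0 without the first ES array and without the intensity trend, and 1 without the second ES array or either array of line 3. The median in line 3 was 0.10 and in line 1 0.01. Leaving out 1 array at a time gave 0 to 3 lower calls in the mean.

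**Figure D5:**
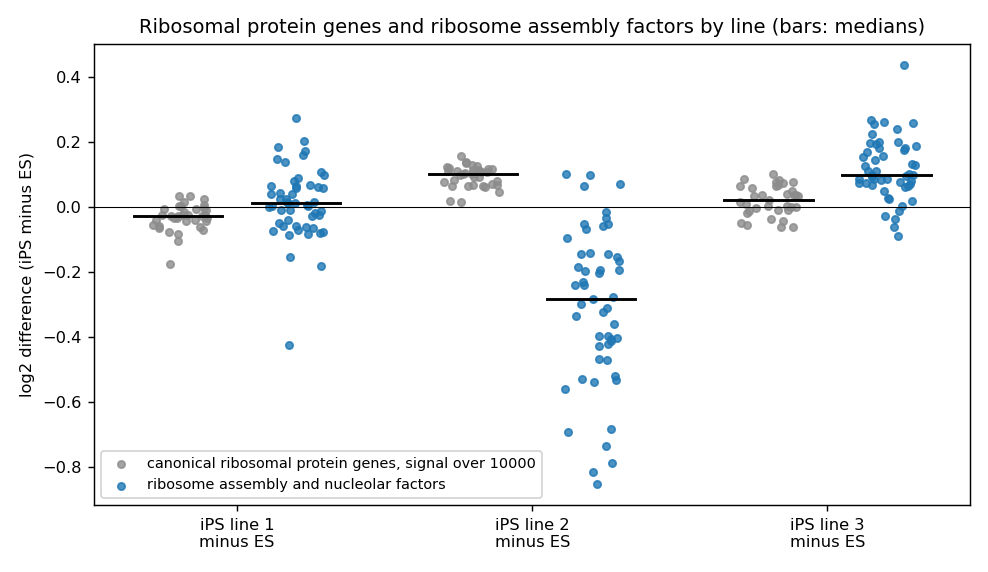
Log2 difference (iPS minus ES) in each iPS line of the 35 bright canonical ribosomal protein genes (grey) and of the 51 ribosome assembly and nucleolar factors (blue), with bars at the medians. In line 2 the medians are 0.10 and -0.28, in line 1 -0.03 and 0.01, and in line 3 0.02 and 0.10.

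Of 27 symbols listed as other transcripts with a TOP tract, mainly of translation factors, 23 were tested. The listing was not checked against the starts of these genes. None was called in the mean of the lines, where Gas5, Eef1e1, Eif3f and Eif4b had values of 0.14, 0.13, 0.13 and 0.11 log2 units. In line 2, 4 of 23 were called, against 26.7% of all genes, and 3 of them rose and 1 fell: Gas5, a host gene of small nucleolar RNAs, by 0.44, Eif4b, an initiation factor, by 0.26, and Eef2, the translocation factor, by 0.31, while the initiation factor subunit gene Eif3l fell by 0.22. Eef2 and Eif3l were named after their values were seen. Gas5 had signals of 18952 and 17400.1 in iPS line 2 and 12773 and 13930.4 in ES cells, without overlap. The median of the list in line 2 was 0.01, below that of all genes (0.07).

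Of the 25 genes of mTOR signalling, TOP control and translation initiation, 23 were tested, and 2 rose and 1 fell in the mean of the lines. Among all genes 4.27% were called higher there and 3.03% lower. Ddit4, which encodes an inhibitor of mTOR complex 1 induced by stress, had signals of 1764 and 1849 in iPS line 1, 8341 and 8280 in iPS line 2, 969 and 1018 in iPS line 3, and 1300.4 and 1447 in ES cells. It was higher than ES cells in lines 1 and 2 and lower in line 3, and its difference in line 2 was 2.59 ± 0.07 log2 units (limma with Benjamini-Hochberg adjustment, adjusted p = 4.64e-10). Myc, a transcription factor known to drive ribosomal protein and assembly factor genes, had signals of 353 and 296 in iPS line 1, 170 and 134 in iPS line 2, 426 and 320 in iPS line 3, and 368 and 414 in ES cells. It fell by 1.30 in line 2 (limma with Benjamini-Hochberg adjustment, adjusted p = 0.000155). Mycn, its relative, rose by 0.23 ± 0.05 in the mean, higher on every iPS array than in ES cells (adjusted p = 0.0183 in limma with Benjamini-Hochberg adjustment). Mtor was 0.20 ± 0.07 in the mean, not called, and 0.32 in line 2, called. In line 2, 5 genes of the list rose and 1 fell, 6 of 23, a share near the 26.7% of all genes called there. Rictor (0.27) and Tsc1 (0.76), named after their values were seen, were the remaining ones that rose.

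For ribosomal stress and p53, 8 of 10 listed symbols were tested, and Trp53, the gene of p53 itself, was not among them. In the mean of the lines 1 rose and 1 fell, in line 2 2 rose and 1 fell, in line 1 2 fell and in line 3 0 were called. The shares of all genes called were 7.3%, 26.7%, 2.34% and 4.17% in that order. Cdkn1a, the cell cycle inhibitor induced by p53, had signals of 1636 and 1207 in iPS line 1, 3189 and 3242 in iPS line 2, 1234 and 1293 in iPS line 3, and 1345 and 1386 in ES cells. It rose by 1.23 ± 0.11 log2 units in line 2 (limma with Benjamini-Hochberg adjustment, adjusted p = 7.52e-06). Ccng1, also induced by p53, fell by 0.22 ± 0.05 in the mean of the lines (limma with Benjamini-Hochberg adjustment, adjusted p = 0.0215) and by 0.19 in line 2. Mdm4, an inhibitor of p53 named after its values were seen, rose by 0.49 in line 2. Mdm2 was called lower in line 1 (-0.43) and not in the mean (-0.20 ± 0.06). Beside these, the p53-induced paralogue Rps27l differed by -0.06 ± 0.05 in line 2 and was not called.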

How the data were processed

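RNA of 8 samples was measured on Affymetrix 3′ expression arrays. The deposited intensity signals are linear and come from MAS5, as the submitters' processing notes name it. No source used here gives its version, scaling target or detection calls. The mean signal without the top and bottom 2% was 500.004 on every array, and signals were used without new scaling. The platform annotation gave 1 symbol for 34945 of 45101 probe sets, several for 932 and none for 9160.

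Values were log2(signal + 12.4), the 20th percentile, which understates changes of dim genes. Probe sets had to exceed 37.1, the 40th percentile, on at least 2 arrays, and the brightest with 1 symbol stood for its gene. limma 3.58.1 in R 4.3.3 (lmFit, eBayes with intensity trend, two-sided) fitted 4 group means over all 8 arrays, leaving 4 residual degrees of freedom. Adjustment was Benjamini-Hochberg over 14004 genes, or 25733 probe sets. Errors are SE, and the number of arrays limits precision. On simulated data for the mean contrast (14004 genes) 18% of genes changed by 0.25 log2 units, 40% by 0.5 and 72% by 1 were recovered, with 6 false calls. The changed genes were drawn from all tested genes, whose median SE was 0.13, against 0.05 for canonical genes. The rates therefore do not describe canonical genes.

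The members, gene lists and naming rule were chosen with earlier results of these data known. Named were all paralogues, called members, Rplp0, Rplp2, Rpsa, Fau and Rpl11, the 3 genes most like Rpl22l1 and Rpl39l, and up to 4 genes of each list by adjusted p in the mean contrast. All 51 symbols matched RefSeq, 50 as protein-coding genes.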

Additional observations from a re-analysis of the deposited data

Results flagged for a closer look

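Differences between iPS lines under the same test were found for 12 gene and line pairs (limma with Benjamini-Hochberg adjustment, 2 arrays a line). Between line 2 and line 1 the log2 differences were -0.49 for Rpl7l1, -0.51 for Rps19bp1 and -0.30 for Rps6, lower in line 2, and 0.24 for Rpl8, 0.20 for Rps4x, 0.19 for Rpl22l1 and 0.17 for Rpl13a, higher in line 2. Between line 2 and line 3 they were -0.68 for Rps19bp1, -0.60 for Rpl7l1, -0.40 for Rps6 and -0.37 for Rpl12, lower in line 2, and 0.18 for Rps25, higher in line 2. The beta-actin 3′/5′ ratio was also highest in line 2, while the Gapdh ratio of line 2 overlapped with that of the other arrays, and their part in these differences was not tested. Groups of 2 arrays are too small to look for outlying arrays.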

How the results depend on the processing

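A group mean rests on 2 arrays. Counts of members called were reported as 2 in the mean of the lines, 1 in line 1, 7 in line 2, 1 in line 3, 7 in line 2 against line 1, 5 in line 2 against line 3 and 0 in line 3 against line 1; of the paralogues 2, 1, 3, 1, 2, 1 and 0 were called. Of 282 such counts under alternatives, 216 stayed within 1.5 times the reported value, and of 518 values of single genes 444 kept direction and call; the cause was not tested for the others.

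Quantile normalization left 3 members in line 2 against line 1, with 1 paralogue there and 2 against line 3. Centring on array medians gave the same 3, 1 and 2, and 1 member, a paralogue, in the mean. Without the filter 1 paralogue was called in line 2 against line 1. With the filter at the 60th percentile 2 members, both paralogues, were called in line 3, and 2 paralogues in line 2 against line 3. Averaging a gene's probe sets gave 4 in the mean (1 of them a bright canonical gene), 2 in line 1, 2 in line 3, 2 in line 3 against line 1 and 10 in line 2 against line 3. Leaving out shared-probe sets gave 9 in the last. Without the intensity trend 0 members were called in the mean, line 1 and line 3, 4 in line 2 and 2 in line 2 against line 1, 1 of them a paralogue. Every probe set on its own gave 4 genes in the mean, 15 in line 2, 12 in line 2 against line 1 and 13 against line 3. With only the groups compared, 2 members, both paralogues, were called in line 3, 1 paralogue in line 2 against line 1 and 2 against line 3. With line means as samples limma called 0 members and 0 of 14004 genes, and 280 genes had an unadjusted p under 0.05. Without iPS line 2, 1 member, Rpl39l, was called in the mean.

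Same-numbered arrays did not deviate together (r between -0.01 and 0.03 over 6 pairs of groups), and the main fit did not pair them. The median deviation of members was higher on the first array than on the second in each iPS line. It was -0.01 and -0.08 in line 1, 0.10 and 0.03 in line 2, and 0.03 and -0.02 in line 3. In ES cells the order was the reverse, with -0.07 and 0.04. With the replicate block 2 members, both paralogues, were called in line 3 and 2 paralogues in line 2 against line 3.

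On leaving out each array, members called ranged from 1 to 2 in the mean, 0 to 1 in line 1, 5 to 7 in line 2, 0 to 2 in line 3, 3 to 8 in line 2 against line 1 and 4 to 5 against line 3, and stayed at 0 in line 3 against line 1. Paralogues ranged from 1 to 2 in the mean, 0 to 1 in line 1, 0 to 2 in line 3, 1 to 2 in line 2 against line 1 and against line 3, and stayed at 3 in line 2. Rpl7l1, on its brightest probe set, changed sign in the mean without iPS line 2 (0.046), and it was called in the mean under 1 of 20 alternatives. Without 1 ES array the mean ranged from -0.075 to 0.034 for Rps27l and from -0.17 to 0.033 for Rps4l, positive without the second. Rpl22l1 lost its call in the mean under 6 of 20 alternatives and Rpl39l under 2, no intensity trend and line means. Rpl39l, Rpl7l1, Rps19bp1 and Rps6 in line 2 against ES cells kept their calls under all 19 alternatives run.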
